A study of Mus musculus with 16 samples.

Results

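The enzymes that oxidise pyruvate and fatty acids in mitochondria were examined in haematopoietic stem cells (HSCs) of mouse bone marrow (BM). The 39 genes were taken as a fixed list of symbols, by their place in the tricarboxylic acid (TCA) cycle and in fatty acid oxidation. The list was drawn up with earlier results of these data known. All 39 were found among the 46078 genes of the count table. Of these, 4 bring pyruvate into the cycle, 20 encode enzymes of the TCA cycle or their isoforms in the cytosol, and 15 serve fatty acid oxidation. HSCs were sorted as lineage-negative, Sca1-positive, cKit-positive cells lacking CD48 and carrying CD150. They came from C57/Bl6 mice, either WT or Gfra2-/-, and from 2 fractions of the long bones, the fraction that stays with the bone (endosteal BM) and the marrow fraction (central BM). Each library was made with Smart-seq2 from a pool of 30 cells. There were 4 libraries each of endosteal WT, central WT and endosteal Gfra2-/- HSCs and 3 of central Gfra2-/- HSCs, lettered here within a group. No mouse was treated, and ages were not given in the labels. Gfra2 is lost in every cell of these mice, so that an effect on HSCs and one on their surroundings cannot be told apart, and Gfra2-/- mice are known for a loss of cholinergic nerve fibres.

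The TCA cycle burns the acetyl group of acetyl-CoA to carbon dioxide and passes the electrons to NADH and to succinate dehydrogenase, which is part of both the cycle and the respiratory chain. Acetyl-CoA comes from pyruvate through the pyruvate dehydrogenase complex, or from fatty acids, which enter mitochondria bound to carnitine and are shortened by repeated dehydrogenation, hydration, a second dehydrogenation and thiolysis. Electrons of the first dehydrogenation leave through the electron transfer flavoprotein and its dehydrogenase. HSCs are known for a low use of mitochondrial respiration at rest, and fatty acid oxidation is known to matter for their maintenance.

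Reads of Gfra2 itself were too few in WT to check the genotype: 1 in all from the endosteal and 4 from the central libraries. Of the endosteal libraries of the knockout, A and C held 2 and 1 Gfra2 counts but B and D held 47 and 9. The central ones held 0, 1 and 0. Where these reads lie in the gene was not examined, so they do not show whether the labels are right. The text therefore speaks of libraries labelled Gfra2-/-. The 12 HSC genes checked (among them Kit, Procr, Mecom and Hlf) were detected in all 15 libraries. Myeloid markers (9 genes) summed to 540 to 994 CPM (counts scaled to a common library size) in endosteal WT and 541 to 2741 CPM in central WT libraries, with Mpo, Elane and Ctsg at 0 in every central WT library. In libraries labelled Gfra2-/- the same sum was 477 to 698 CPM (endosteal) and 565 to 1627 CPM (central), while Ctsg was at 0 in both groups, Elane in the endosteal one and Ngp in the central one. The 3 markers of cells outside the gate (Cd48, Flt3 and Il7r) summed to 38.3 to 84.8 CPM in endosteal libraries labelled Gfra2-/-, above the 0.399 to 36.3 CPM of endosteal WT, to 8.76 to 80.1 CPM in central ones and to 0.310 to 17.4 CPM in central WT. Lymphoid markers (7 genes) reached 1795 CPM and erythroid markers (8 genes) 657 CPM in endosteal libraries labelled Gfra2-/-, against at most 98.7 and 110 CPM in endosteal WT. These maxima stood far above the medians of 68.2 and 117 CPM in the former, beside 55.9 and 79.9 CPM in endosteal WT. In central libraries, lymphoid markers reached 260 CPM (WT) and 349 CPM (labelled Gfra2-/-), and erythroid markers 85.0 and 142 CPM. The part of such cells in the results was not tested.

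Depth differed between the groups. Counts on genes were 826487 to 3367289 in the central WT libraries and 4416648 to 18550008 in the other 11, and spike-in RNA took 0.421% to 7.10% of reads in central WT and 0.192% to 2.98% in the others. Fewer counts mean less precise values: 33 to 37 of the 39 members had at least 10 counts in a central WT library, against 37 to 39 in the other libraries. A count of 0 in the shallowest library, central WT library C, allows up to 3.63 CPM (3 counts), and 0.162 CPM in the deepest. These limits use counts on genes alone, without the TMM scaling of the other CPM values. With that scaling, 3 counts in central WT library C are 4.01 CPM. Reads carried no molecular identifiers, so these limits cover counting error only. In bulk pools, fewer expressing cells and less RNA per cell cannot be told apart.

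The members were mostly well-expressed genes. Levels are given per kb of merged exon, which allows a rough comparison between genes. The median member had 22.1 CPM per kb (mean of the 4 group means), against 6.33 CPM per kb over 15341 genes tested in all libraries. The median percentile of the members was 83.1. The highest level was that of Etfb, the beta subunit of the electron transfer flavoprotein, with 274 CPM per kb (SD 123 over 15 libraries), but 67.3% of the 50-base stretches of its transcript also occur in the gene model Gm45233, so this level is uncertain. Next came Idh2, the mitochondrial NADP-dependent isocitrate dehydrogenase (99.3 CPM per kb, SD 40.6), and Mdh1, the cytosolic malate dehydrogenase (97.7 CPM per kb, SD 31.7). At the low end stood Slc25a20, the carnitine-acylcarnitine carrier of the inner membrane (5.79 CPM per kb, SD 3.60), Hadhb, the thiolase subunit of the trifunctional protein (3.76 CPM per kb, SD 1.98), and Pcx, pyruvate carboxylase (1.13 CPM per kb, SD 2.16). Of the 38 neighbouring pairs in the order of levels, 2 differed by more than the larger SD of the pair, Etfb above Idh2 and Hadhb above Pcx, while the other neighbours did not differ beyond their spread.

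Subunits of one enzyme had different mean levels per kb of merged exon, and their order can depend on the length used. Merged exons of Sdhb span 2239 bases but its longest transcript 1232, whereas both are 1231 for Sdhd. In succinate dehydrogenase, Sdha (the flavoprotein) had 91.0 (SD 22.3 over 15 libraries) and Sdhd (a membrane anchor) 88.8 CPM per kb (SD 31.0). Sdhb (the iron-sulphur subunit) had 51.2 (SD 24.7) and Sdhc (the other anchor) 36.4 (SD 17.7). The catalytic subunit of NAD-dependent isocitrate dehydrogenase, Idh3a, had 24.3 CPM per kb (SD 13.5). The regulatory subunits Idh3b and Idh3g had higher means of 66.1 (SD 22.1) and 87.4 (SD 37.1). Hadha and Hadhb, which form the trifunctional protein, lie head to head on chromosome 5 with 85 bases between the gene models (GRCm38, 30155162 to 30155248), and had 9.95 and 3.76 CPM per kb.

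**Figure D1:**
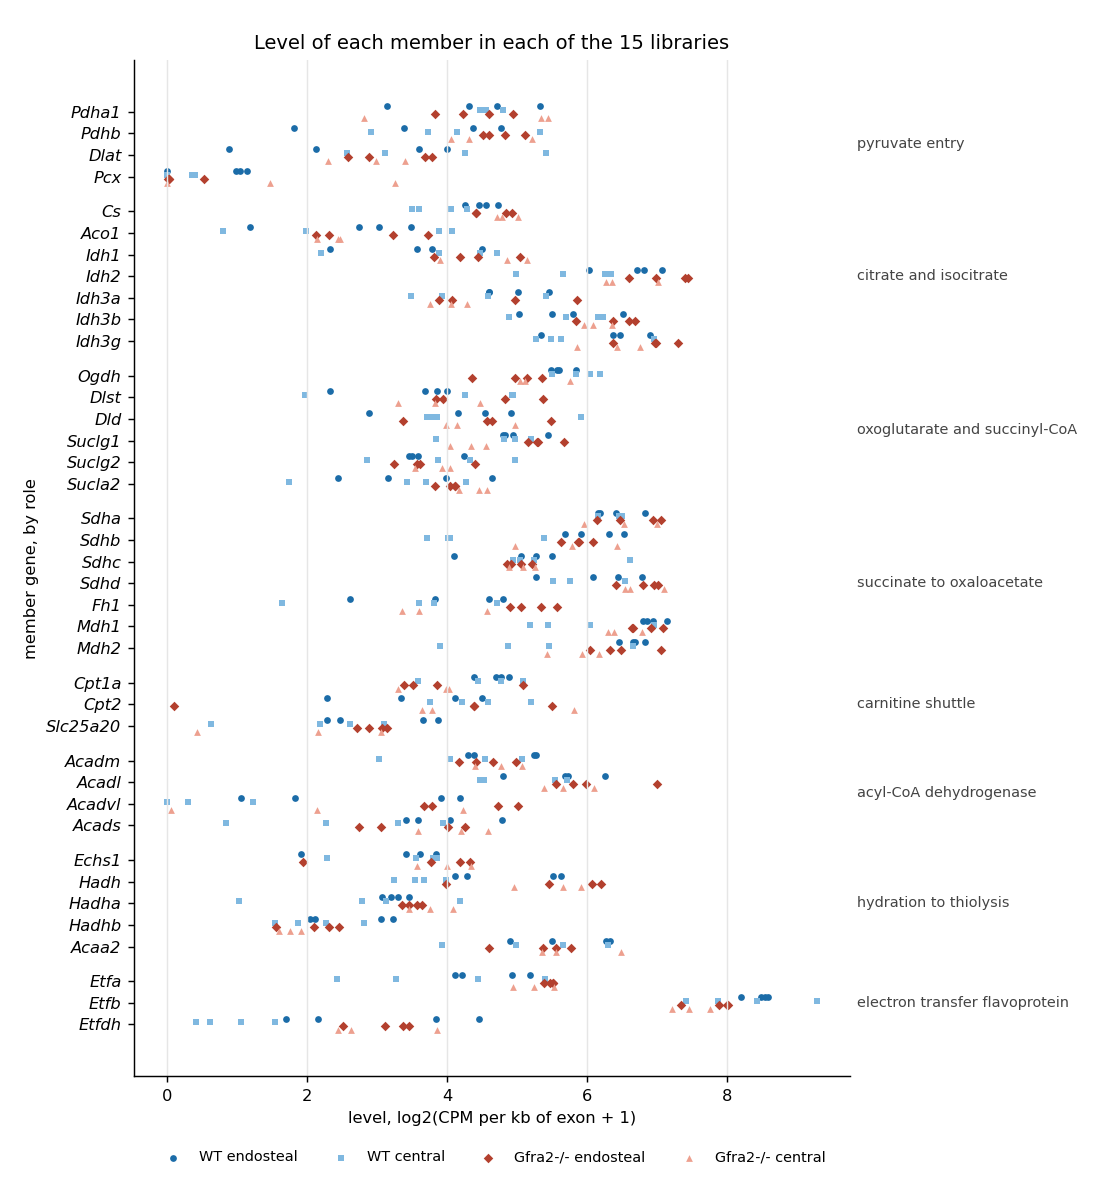
Level of each of the 39 members in each of the 15 libraries, as log2(CPM per kb of exon + 1) on the horizontal axis, with members on the vertical axis grouped by role and symbols for the 4 groups. Etfb stands highest and Pcx lowest. The central WT libraries lie lowest for Etfdh, are low for Acadvl and spread widely for Dlst and Fh1.

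Spread between libraries was large, with a median smaller for members than over all genes. The median coefficient of variation (SD over mean) of the members within a group was 43.1% in endosteal WT, 62.2% in central WT, 29.6% in endosteal and 29.7% in central libraries labelled Gfra2-/-, against medians of 69.9%, 87.1%, 63.0% and 58.9% over all genes tested, which are on the whole lower in level. In central WT it ran from 10.9% to 163%. The steadiest member over the 4 groups was Cs, citrate synthase, at 18.3% on average, and the least steady was Pcx at 121%.

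As a share of all counts on genes, the members together took 0.379% ± 0.0216 (SD, n = 4) in central WT, 0.492% ± 0.0419 (n = 4) in endosteal WT, 0.546% ± 0.0571 (n = 4) in endosteal and 0.470% ± 0.0427 (n = 3) in central libraries labelled Gfra2-/-. For the 20 TCA cycle genes the share was 0.245%, 0.262%, 0.242% and 0.240% in central WT libraries A to D. All 4 lay below the lowest of the other 11 libraries, at 0.285%. The endosteal WT libraries held 0.296%, 0.342%, 0.324% and 0.319%, the endosteal libraries labelled Gfra2-/- 0.341%, 0.408%, 0.330% and 0.421%, and the central ones 0.331%, 0.285% and 0.296%. No test is given for such sums. Fatty acid oxidation genes took 0.0839%, 0.109%, 0.111% and 0.1274% in the central WT libraries, in rising order, and 0.130% to 0.1697% in endosteal WT. They took 0.1275% to 0.163% in endosteal and 0.114% to 0.154% in central libraries labelled Gfra2-/-, so that central WT overlapped with the latter and came up to the lowest endosteal library. With mitochondrial genes left out of the total, central WT library D (0.1361%) passed endosteal library C labelled Gfra2-/- (0.1357%), whereas the TCA cycle shares of central WT stayed below all others (at most 0.286%, against 0.307% or more). For the 4 pyruvate genes all groups overlapped (0.00401% to 0.0429%). The mean pyruvate share was 0.0235% in central WT and 0.0189% in endosteal WT. Central WT had the lowest mean shares for all members, the TCA cycle and fatty acid oxidation. It is also the group with the lowest depth and the highest share of spike-in reads, and depth and group cannot be told apart here.

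**Figure D2:**
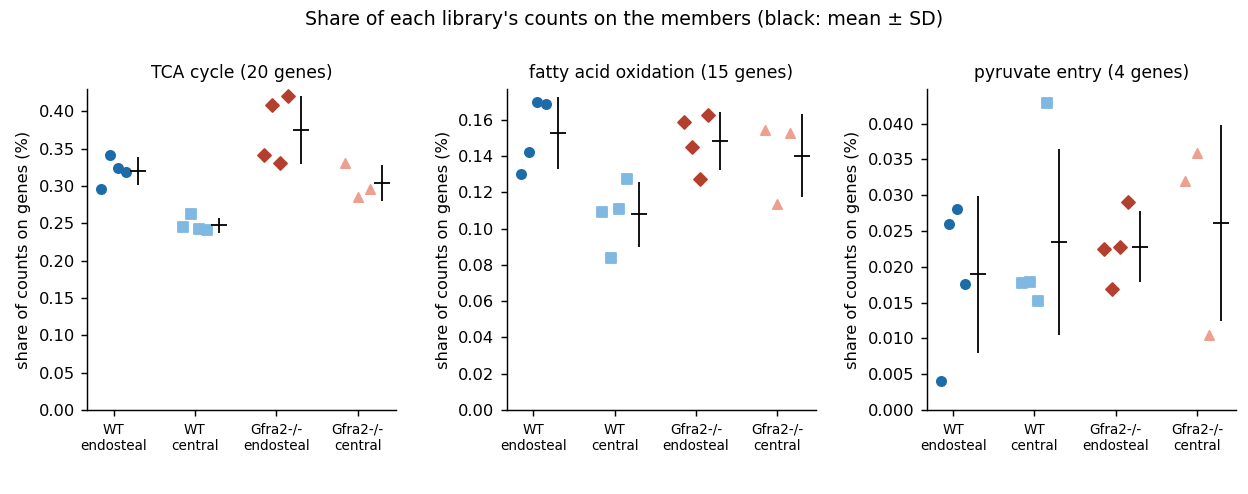
Share of each library's counts on genes (%, vertical axis) that fell on TCA cycle, fatty acid oxidation and pyruvate entry genes, by group, with mean ± SD in black. The 4 central WT libraries lie at 0.240% to 0.262% for the TCA cycle, below the other 11 libraries.

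The group with the lowest mean CPM was central WT for 18 of the 39 members (46.2%), against 36.5% of all genes tested, and the group with the highest mean was endosteal HSCs labelled Gfra2-/- for 14 members (35.9%), against 26.8% of all genes. These are counts of means and were not tested.

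The members that stood lowest in central WT were Etfdh, the dehydrogenase that takes electrons from the electron transfer flavoprotein to ubiquinone, Hadh, which oxidises medium- and short-chain hydroxyacyl-CoA, and Sdhb. Their promoters are shown because these genes had an unadjusted p-value under 0.05 in both comparisons with central WT. Acadvl had so too, and its promoter is left out because its exons overlap those of Dvl2 and its reads were few in central WT. RefSeq (GRCm38.p6) gave a promoter for 36 of the 39 members, and the 250 bases before the start of each were searched on both strands. The stretches below run 5′ to 3′ on the strand of the gene and stop before the first base that GENCODE gives as untranslated region. Capitals mark matches to GCATGCGC (the core of the NRF1 site), GGGCGG (the GC box) or CCAAT, on either strand, and matches of GCATGCGC on both strands overlap in Etfdh. Etfdh was read from chr3:79628864-79629017, minus strand (154 bases), Hadh from chr3:131272102-131272351, minus strand (250 bases), and Sdhb from chr4:140961021-140961202, plus strand (182 bases).
Etfdh: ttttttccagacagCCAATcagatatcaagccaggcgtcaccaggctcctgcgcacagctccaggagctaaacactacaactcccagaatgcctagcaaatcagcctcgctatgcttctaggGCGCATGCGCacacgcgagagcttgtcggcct
Hadh: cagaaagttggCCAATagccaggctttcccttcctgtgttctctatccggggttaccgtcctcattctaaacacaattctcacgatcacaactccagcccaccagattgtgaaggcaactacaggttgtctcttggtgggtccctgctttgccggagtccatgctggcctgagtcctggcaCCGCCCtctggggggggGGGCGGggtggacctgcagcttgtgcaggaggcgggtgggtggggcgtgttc
Sdhb: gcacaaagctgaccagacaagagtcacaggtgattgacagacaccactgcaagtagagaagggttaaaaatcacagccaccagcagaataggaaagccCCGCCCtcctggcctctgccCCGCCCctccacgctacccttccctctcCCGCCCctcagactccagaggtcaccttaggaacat

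Within the 250 bases, GCATGCGC was found in 5 of 36 members (13.9%: Etfdh, Sdhb, Acadm, Etfa and Ogdh) and in 2.26% of the 32851 mouse promoters of the same length. The match of Sdhb lies beyond the stretch printed. The GC box was present in 24 members (66.7%) and 32.7% of all promoters, and CCAAT in 18 members (50%) and 33.8%. CCGGAAG, the core of ETS sites, was found in 4 members (11.1%: Cpt2, Sdhd, Slc25a20 and Idh3g) and 6.91% of promoters, CACGTG (E-box) in 2 (5.56%) and 6.02%, and TGACGTCA (CRE) in 2 (5.56%) and 1.55%. No member held TATAAA, present in 12.4% of promoters, or the site TCAAGGTCA of oestrogen-related receptors, present in 0.387%. The members' promoters had a median of 15 CG dinucleotides, against 6 over all promoters. Shares of the members are per gene (36 genes with 43 promoters) and those of the background per promoter (32851 promoters of 27025 genes). The 2 are therefore not like for like. These matches are descriptions of the letters and were not tied to the values.

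The first comparison asked how HSCs near the bone differ from those of the central marrow in WT mice. Differences are given as log2 fold changes with their standard error (SE) from edgeR, positive where the first group is higher. No member passed the 10% false discovery rate (FDR): 0 of 38 tested, as 0% of all 11181 genes tested were called (Pcx was too low to be tested). DESeq2 called 3 members, Etfdh, Acadvl and Sdhb, at the same FDR, where it called 4.49% of all genes. At an unadjusted p-value under 0.05 in edgeR, 5 members were higher in endosteal HSCs (13.2%) and 0 lower, against 4.43% and 3.46% of all genes. Of the tested members, 24 had a log2 fold change above 0 (63.2%, against 51.5% of all genes), and their median was 0.26, where the median of all genes was 0.03. Groups did not overlap for 3 members, all higher in endosteal HSCs (7.89%), and for 0 lower ones, against 4.27% and 2.1% of all genes.

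Etfdh had 157, 26.1, 100.2 and 16.9 CPM in the endosteal WT libraries, from A to D, and 8.13, 2.48, 4.01 and 14.4 CPM in the central ones. The groups did not overlap, but the highest central library (D) came close to the lowest endosteal one (D). The log2 fold change of Etfdh was 3.32 (SE 0.96, FDR = 0.449 from edgeR). In raw reads the central libraries held 9, 8, 3 and 43 counts. By the share of spike-in reads, which splits the libraries into 11 with over 0.5% and 4 with less (1 in each group), the log2 ratio of means (of CPM + 1) came to 4.02 where spike-in was above that limit and to 0.21 in the single pair below it.

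Hadh had 91.9, 81.1, 241 and 222 CPM in endosteal and 53.3, 58.6, 73.5 and 42.3 CPM in central WT libraries. All endosteal values were above all central ones, with a log2 fold change of 1.47 (SE 0.50, FDR = 0.493 from edgeR). Its ratio held its direction in both sets, at 1.15 with more and 2.37 with less spike-in. Sdhb had 204, 113, 176 and 133 CPM in endosteal and 27.1, 91.5, 34.8 and 33.9 CPM in central libraries, again without overlap, although central library B stood well above the other central ones. Its log2 fold change was 1.72 (SE 0.51, FDR = 0.457 from edgeR), with ratios of 1.67 and 1.94 in the 2 sets.

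The remaining members under an unadjusted p-value of 0.05 were Mdh2, the mitochondrial malate dehydrogenase, and Acadvl, the dehydrogenase of very long chains. Mdh2 had 356 ± 37.4 CPM in endosteal and 165 ± 134 CPM in central WT (SD, n = 4 each), and the groups overlapped because central library C stood at 356 CPM. Acadvl had 12, 569, 510 and 84 counts in endosteal and 4, 2, 0 and 0 in central WT libraries. Scaled for depth the groups overlapped, since endosteal library A stood at 2.92 CPM and central library A at 3.61 CPM. Reads of Acadvl are uncertain, since 42.9% of its exon bases overlap Dvl2 and strand was not used in counting.

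By role, 13 of the 15 fatty acid oxidation members had a log2 fold change above 0 (median 0.50), as did 11 of 20 TCA cycle members (median 0.24) and 0 of 3 tested pyruvate members (median -0.39). All 4 acyl-CoA dehydrogenases were on the positive side, while 4 of the 6 members from oxoglutarate to succinate (Ogdh, Dlst, Dld and Suclg2) were on the negative side. None of these groups was tested as a group.

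**Figure D3:**
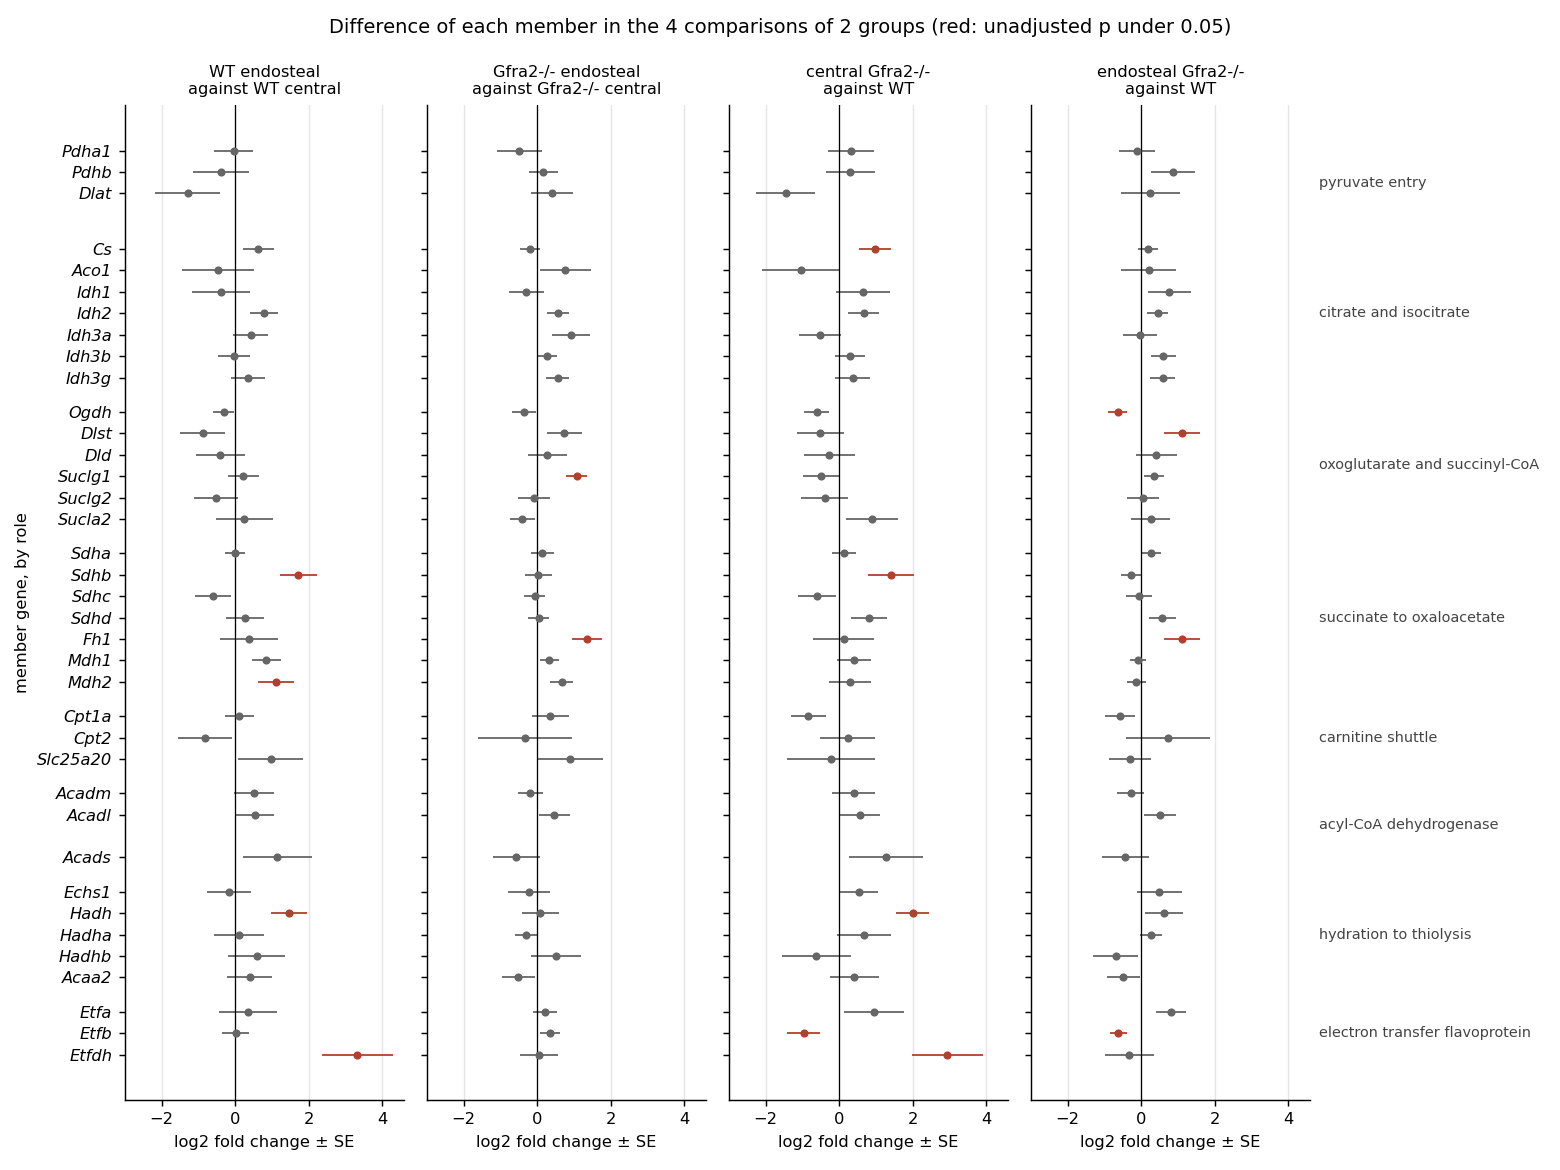
Log2 fold change ± SE (horizontal axis) of 37 members, grouped by role, in the 4 comparisons of 2 groups, with red for an unadjusted p-value under 0.05 in edgeR. Pcx and Acadvl, with libraries at 0 counts, are left out. Etfdh, Hadh and Sdhb are to the right in both comparisons with central WT and near 0 in the second panel.

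The same comparison of compartments was led by other members in libraries labelled Gfra2-/-. Again 0 of 39 tested members passed the 10% FDR in edgeR (0% of 13860 genes), DESeq2 called 2, Suclg1 and Fh1, where it called 2.75% of all genes, and at an unadjusted p-value under 0.05 edgeR had the same 2 higher in endosteal HSCs (5.13%) and 0 lower, against 2.74% and 2.05% of all genes. A log2 fold change above 0 was found for 25 members (64.1%, against 51.6%), with a median of 0.17 beside 0.03 for all genes. Without endosteal libraries B and D, which held more than 2 Gfra2 counts, 20 members were above 0 and the median was 0.04, beside -0.04 for all genes. Groups did not overlap for 2 members that were higher (5.13%) and 1 that was lower, Sucla2 (2.56%), against 3.68% and 3.67% of all genes.

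Suclg1, the shared alpha subunit of succinyl-CoA ligase, had 160.5, 176, 177 and 229.5 CPM in endosteal libraries labelled Gfra2-/- and 105, 89.2 and 71.7 CPM in central ones. Every endosteal library lay above every central one. Suclg1 had a log2 fold change of 1.07 (SE 0.28, FDR = 0.896 from edgeR), with ratios of 0.81 and 1.67 in libraries with more and less spike-in. Fh1, fumarate hydratase, had 98.3, 135, 157 and 110 CPM against 77.1, 31.5 and 37.9 CPM, also without overlap, a log2 fold change of 1.36 (SE 0.41, FDR = 0.896 from edgeR) and ratios of 1.24 and 1.51.

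Without libraries B and D no member was called in edgeR either. Sucla2, the beta subunit of the ATP-forming succinyl-CoA ligase, pointed the other way from Suclg1, with 61.0 CPM on average in endosteal and 80.5 CPM in central HSCs and a log2 fold change of -0.40 (SE 0.33, FDR = 0.999 from edgeR). Etfdh, which led in WT, had 35.6, 70.4, 57.5 and 74.8 CPM in endosteal libraries labelled Gfra2-/-, within the 33.5 to 102 CPM of the central ones. Hadh had 361, 214, 73.7 and 331 CPM there, on both sides of its central values of 149 to 296 CPM. Sdhb had 149, 108, 129 and 129 CPM, within the 68.0 to 189 CPM of the central ones.

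The difference between these 2 compartment effects was tested as the genotype by compartment interaction. It called 0 of 39 members (0% of 15416 genes) in edgeR and 0 in DESeq2, which called 1.62% of all genes. At an unadjusted p-value under 0.05, 0 members were positive and 3 negative (7.69%), against 2.56% and 4.41% of all genes, and 17 members had a value above 0 (43.6%, against 46.3%). A negative value means that endosteal HSCs exceeded central ones by less in libraries labelled Gfra2-/- than in WT. The 3 were Etfdh (-3.30, SE 1.08, FDR = 0.539 from edgeR), Sdhb (-1.69, SE 0.63, FDR = 0.584) and Pcx. Pcx, which turns pyruvate into oxaloacetate, had 0, 87, 52 and 62 counts in endosteal WT and 0, 5, 1 and 0 in central WT libraries, 31, 1, 1 and 1 in endosteal and 620, 90 and 0 in central libraries labelled Gfra2-/-. Central library A alone held most of the reads, and no fold change is given for a gene at 0 to 5 counts in 9 of 15 libraries. Of the 15 fatty acid oxidation members, 12 had a negative interaction value (median -0.16, beside -0.12 for all genes), but this count rests on the scaling: 8 were negative with the size factors of DESeq2, and 8 lay below the median of all genes in edgeR.

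In central BM, libraries labelled Gfra2-/- were compared with WT, the second comparison that rests on the shallow central WT libraries. The 2 comparisons share those libraries, so their values are not independent. No member was called in edgeR (0 of 38 tested), where 0.051% of 11772 genes were, and DESeq2 called 2, Hadh and Etfdh, beside 5.14% of all genes. At an unadjusted p-value under 0.05, 5 members were higher in libraries labelled Gfra2-/- (13.2%) and 1 lower (2.63%), against 4.6% and 4.14% of all genes. Of the tested members, 25 had a log2 fold change above 0 (65.8%, against 51.4%), and their median was 0.31 beside 0.03. Groups did not overlap for 3 members that were higher (7.89%), Hadh, Etfdh and Cs, and for 0 that were lower, against 7.98% and 4.45% of all genes, so that this share was that of the background.

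Hadh had 296, 149 and 247 CPM in central libraries labelled Gfra2-/-, each above the highest central WT library (73.5 CPM). This gave a log2 fold change of 2.00 (SE 0.44, FDR = 0.251 from edgeR), with ratios of 1.83 and 2.52 in libraries with more and less spike-in. Etfdh had 102, 33.5 and 39.2 CPM there, above the 2.48 to 14.4 CPM of central WT, with a log2 fold change of 2.94 (SE 0.96, FDR = 0.381 from edgeR) and ratios of 3.55 and 1.38.

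Sdhb had 121, 68.0 and 189 CPM and overlapped with central WT library B (91.5 CPM). Its log2 fold change was 1.41 (SE 0.62, FDR = 0.553 from edgeR), with ratios of 0.87 and 2.45. Cs, the first enzyme of the cycle, had 146, 181 and 153 CPM against 59.6, 90.6, 107 and 64.5 CPM in central WT, with no overlap, a log2 fold change of 0.97 (SE 0.44, FDR = 0.560 from edgeR) and ratios of 0.92 and 1.24. Acadvl had 728, 97 and 1 counts in the central libraries labelled Gfra2-/-, and library C was thus as low as central WT.

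Etfb was the member lower in central libraries labelled Gfra2-/-, with 171, 249.9 and 203 CPM against 724, 197, 270.0 and 399.8 CPM in WT. The groups overlapped, and central WT library A stood far above the others. Its log2 fold change was -0.96 (SE 0.44, FDR = 0.572 from edgeR).

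**Figure D4:**
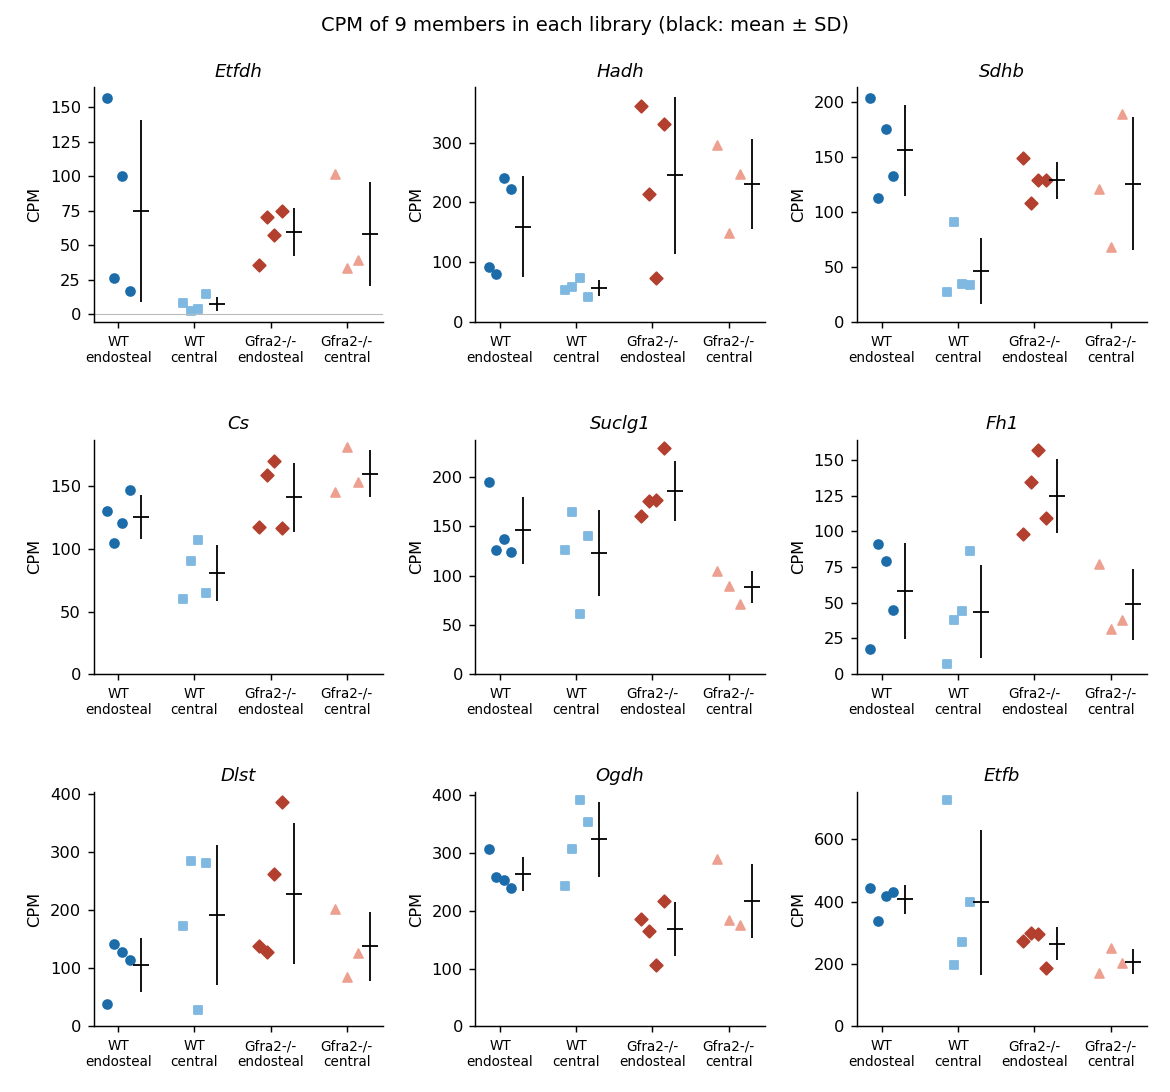
CPM (vertical axis) of 9 members in each library, by group, with mean ± SD in black. Etfdh, Hadh, Sdhb and Cs are lowest on average in central WT, Suclg1 and Fh1 are high in endosteal libraries labelled Gfra2-/-, and Ogdh and Etfb are lower in both groups labelled Gfra2-/- than in the endosteal WT libraries on average.

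In endosteal BM the genotypes were compared at closer depth. No member was called by edgeR (0 of 39, 0% of 12970 genes) or by DESeq2, which called 3.71% of all genes. At an unadjusted p-value under 0.05, 2 members were higher in libraries labelled Gfra2-/- and 2 lower (5.13% each), against 3.18% and 3.52% of all genes. A log2 fold change above 0 was found for 23 members (59.0%, against 51.5%), and their median was 0.25 beside 0.03. Without libraries B and D labelled Gfra2-/- it was 0.07 (21 members above 0), beside -0.06 for all genes, and with libraries over 0.5% spike-in it was 0.11, beside 0.01. Groups did not overlap for 2 members in each direction (5.13%), Fh1 and Etfa higher, Etfb and Ogdh lower, against 2.68% and 3.55% of all genes.

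Dlst, the succinyltransferase of the oxoglutarate dehydrogenase complex, had 138, 128, 262 and 386 CPM in endosteal libraries labelled Gfra2-/- and 38.4, 143, 129 and 114 CPM in endosteal WT. The groups overlapped narrowly. Its log2 fold change was 1.12 (SE 0.48, FDR = 0.737 from edgeR), with ratios of 0.76 and 1.75 in libraries with more and less spike-in. Fh1 had 17.5, 91.4, 79.2 and 44.8 CPM in endosteal WT, all below the 98.3 to 157 CPM of the libraries labelled Gfra2-/- (log2 fold change 1.10, SE 0.49, FDR = 0.740 from edgeR). Ogdh, the first and rate-setting subunit of the same complex as Dlst, pointed the other way, with 186, 165, 106 and 218 CPM against 307, 258, 254 and 239 CPM in WT. Every library labelled Gfra2-/- lay below every WT one, and its log2 fold change was -0.64 (SE 0.27, FDR = 0.737 from edgeR), with ratios of -0.83 and -0.13.

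Etfb had 274, 299, 297 and 187 CPM against 443, 339, 416 and 431 CPM in endosteal WT. The groups did not overlap, and its log2 fold change was -0.62 (SE 0.23, FDR = 0.737 from edgeR). Etfa, the partner of Etfb in the flavoprotein, had 79.5 CPM on average against 45.3 CPM in WT, a log2 fold change of 0.82 (SE 0.40, FDR = 0.748 from edgeR).

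In the groups not yet given, Cs had 130, 105, 121 and 147 CPM in endosteal WT and 118, 159, 170.2 and 117 CPM in endosteal libraries labelled Gfra2-/-. Ogdh had 242, 307, 392 and 353 CPM in central WT and 290.2, 184 and 175 CPM in central libraries labelled Gfra2-/-. The direction of Ogdh was thus that of the endosteal comparison but with overlap (log2 fold change -0.61, SE 0.34, FDR = 0.661 from edgeR). Dlst, in contrast, had 173.5, 285, 28.1 and 281 CPM in central WT and 203, 84.7 and 127 CPM in central libraries labelled Gfra2-/-. Fh1 had 7.23, 37.8, 44.1 and 86.0 CPM in central WT, and Suclg1 had 195, 126, 137 and 124 CPM in endosteal and 126, 164, 61.5 and 140.1 CPM in central WT. Neither separated the compartments of WT.

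The entry and gate steps differed by less than their spread in most comparisons. Pdha1, the alpha subunit of pyruvate dehydrogenase, had 29.2, 146, 94.0 and 70.4 CPM in endosteal WT and 84.0, 100.5, 78.9 and 80.0 CPM in central WT libraries. In libraries labelled Gfra2-/- it had 66.3, 49.2, 86.7 and 111 CPM (endosteal) and 148, 158 and 22.5 CPM (central). All groups overlapped, and its log2 fold changes were between -0.48 and 0.32 (SE 0.50 to 0.62). Part of Pdha1 (16.1% of its exon bases) overlaps Map3k15.

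Cpt1a, the carnitine palmitoyltransferase of the outer membrane and the gate of fatty acid entry, had 153, 191, 218 and 202 CPM in endosteal and 84.0, 158, 253 and 201 CPM in central WT libraries. It had 79.5, 72.4, 103 and 252 CPM in endosteal and 113, 67.5 and 117 CPM in central libraries labelled Gfra2-/-. Lower means were found for the libraries labelled Gfra2-/- in both compartments, with log2 fold changes of -0.58 (SE 0.41, FDR = 0.834 from edgeR) in endosteal and -0.83 (SE 0.48, FDR = 0.672) in central HSCs, neither of which passed the test.

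Acadm, the medium-chain acyl-CoA dehydrogenase, had 78.0, 147, 73.1 and 144 CPM in endosteal and 60.5, 87.5, 28.1 and 128 CPM in central WT, and 119.9, 79.8, 66.4 and 95.0 CPM in endosteal and 127, 78.9 and 102 CPM in central libraries labelled Gfra2-/-. Its libraries overlapped in every comparison. Idh3a had 118, 217, 117 and 159 CPM in endosteal and 51.5, 72.0, 211 and 116 CPM in central WT, and 79.8, 290.0, 70.2 and 154 CPM in endosteal and 94.2, 63.5 and 79.8 CPM in central libraries labelled Gfra2-/-. Here too the groups overlapped in each of the 4 comparisons, with the largest log2 fold change in the compartments of libraries labelled Gfra2-/- (0.91, SE 0.52, FDR = 0.999 from edgeR).

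Of the highest members after Etfb, Idh2 had 268, 288, 166 and 346 CPM in endosteal and 207, 196, 128 and 79.6 CPM in central WT libraries, and 324, 445, 247 and 435 CPM in endosteal and 331, 198 and 209 CPM in central libraries labelled Gfra2-/-. Mdh1 had 312, 358, 282 and 296 CPM in endosteal and 315, 109, 90.9 and 166 CPM in central WT, and 307, 255, 253 and 347 CPM in endosteal and 211, 281 and 200.1 CPM in central libraries labelled Gfra2-/-. Both had their lowest mean in central WT but overlapped between the compartments of WT, with FDRs of 0.641 and 0.626 (edgeR).

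Among the lowest, Slc25a20 had 66.1, 22.0, 56.3 and 18.7 CPM in endosteal and 17.2, 24.8, 2.67 and 36.6 CPM in central WT, and 30.9, 38.2, 27.1 and 36.0 CPM in endosteal and 35.5, 16.9 and 1.66 CPM in central libraries labelled Gfra2-/-. The last of these rests on 13 counts. Hadhb had 22.1, 55.6, 20.6 and 48.5 CPM in endosteal and 12.6, 17.7, 25.4 and 40.0 CPM in central WT, and 29.6, 21.6, 12.9 and 26.2 CPM in endosteal and 18.4, 13.5 and 15.7 CPM in central libraries labelled Gfra2-/-. Neither separated the groups in any of the 4 comparisons of 2 groups. Cpt2, the carnitine palmitoyltransferase of the inner membrane, had 2 counts in endosteal library D labelled Gfra2-/- and 414 to 2104 in the other 3 libraries of its group, so its mean there has little meaning.

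The other members, none at an unadjusted p-value under 0.05 in any comparison, included genes at like levels in every group. Sdha had 350.0 ± 80.8 CPM in endosteal and 345 ± 37.5 CPM in central WT (SD, n = 4 each), and 423 ± 119 CPM (n = 4) and 384 ± 135 CPM (n = 3) in endosteal and central libraries labelled Gfra2-/-. Acads, the short-chain acyl-CoA dehydrogenase, had 35.5 ± 17.3 CPM in endosteal and 15.8 ± 13.5 CPM in central WT, and 26.3 ± 13.7 and 38.9 ± 13.8 CPM in libraries labelled Gfra2-/-. Its libraries overlapped in every comparison of 2 groups. Dlat, the acetyltransferase of the pyruvate dehydrogenase complex, was highest on average in central WT (88.5 ± 81.8 CPM), against 37.1 ± 32.2 CPM in endosteal WT and 44.0 ± 19.0 and 33.3 ± 13.8 CPM in libraries labelled Gfra2-/-.

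Aco1, the cytosolic aconitase, had, among the comparisons of 2 groups, its log2 fold change farthest from 0 in central HSCs, at -1.04, and Pdhb, the beta subunit of pyruvate dehydrogenase, in endosteal HSCs, at 0.87 (libraries labelled Gfra2-/- against WT). Acadl, the long-chain acyl-CoA dehydrogenase, was positive in all 4 comparisons of 2 groups (0.47 to 0.57), as were Idh3g (0.35 to 0.59) and Sdhd (0.04 to 0.80). Acaa2 (mitochondrial thiolase) was positive against central WT (0.39 and 0.42) and negative in the other comparisons (-0.51 and -0.48). The remaining ones, Idh1, Idh3b, Dld, Suclg2, Sdhc, Echs1 and Hadha, had values between -0.60 and 0.76.

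Around these members, 99 further genes of the same pathways were examined: suppliers of pyruvate and their kinases, other feeders of the cycle, fatty acid uptake and activation, other mitochondrial and peroxisomal oxidation, and regulators. None passed the 10% FDR in any of the 5 tests of edgeR. At an unadjusted p-value under 0.05, 3 of 81 tested (3.70%) were higher and 0 lower in endosteal WT HSCs, where 4.43% of all genes were higher, and 3 of 86 (3.49%) higher and 0 lower in endosteal HSCs labelled Gfra2-/-, where 2.74% were. Between the genotypes, 1 of 83 (1.20%) was higher and 0 lower in central and 1 of 87 (1.15%) in each direction in endosteal libraries labelled Gfra2-/-, below the shares of all genes. In the interaction 0 were positive and 4 of 91 (4.40%) negative, 3 of them on the peroxisomal list, against 4.41% of all genes. These shares were near or under the background.

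The peroxisomal list held the leading neighbours in both comparisons with central WT. Hsd17b4, a bifunctional enzyme of peroxisomal oxidation, had 27.5, 95.9, 82.2 and 118 CPM in endosteal and 19.0, 20.8, 12.03 and 28.9 CPM in central WT (log2 fold change 1.96, SE 0.67, FDR = 0.501 from edgeR), with a narrow overlap between the groups. Acox3, a peroxisomal acyl-CoA oxidase, had 239, 27.1, 15.3 and 26.4 CPM against 0.904, 11.5, 25.4 and 9.41 CPM, so endosteal library A carried its difference. Ehhadh, the other bifunctional enzyme of peroxisomes, had 1, 0, 0 and 0 counts in central WT, where those labelled Gfra2-/- held 171, 186 and 113. Scaled for depth it had 0.904, 0, 0 and 0 CPM against 11.2, 17.5 and 14.5 CPM (FDR = 0.318 from edgeR). In endosteal libraries it had 25, 64, 8 and 166 counts in WT and 219, 18, 72 and 313 in those labelled Gfra2-/-. Of the other neighbours, Acsl5, an acyl-CoA synthetase, and Pdk3, a kinase that shuts off pyruvate dehydrogenase, led between the compartments of libraries labelled Gfra2-/-, with log2 fold changes of 1.12 (SE 0.35) and 0.99 (SE 0.31) and FDRs of 0.896 (edgeR). In endosteal HSCs, Myc, a transcription factor of growth, was at 0.84 (SE 0.26, FDR = 0.696 from edgeR) and Pprc1, a coactivator of mitochondrial genes, at -1.18 (SE 0.52, FDR = 0.737) in libraries labelled Gfra2-/- against WT.

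The scale on which libraries are compared bears on every value. With spike-in size factors in place of those from the genes, the median of all genes moved to 1.58 in the compartments of WT, -0.46 in those of libraries labelled Gfra2-/-, 1.75 and -0.28 between the genotypes in central and endosteal HSCs, and -2.18 in the interaction. Relative to the median of all genes, the leading members of each comparison kept their direction, but Etfdh came to 1.45 in the compartments of WT and to -0.95 in the interaction. The members' own median exceeded that of all genes by 0.04 in the compartments of WT with spike-in factors, where it did so by 0.23 with factors from the genes. In the compartments of libraries labelled Gfra2-/- these values were 0.246 and 0.139. Between the genotypes they were 0.275 and 0.276 in central and 0.322 and 0.220 in endosteal HSCs, and in the interaction 0.127 and 0.037.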

How the data were processed

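Single-end reads of 50 bases were aligned by the authors with GSNAP to GRCm38 and counted per gene, without strand, in HTSeq (0.5.3p3), and reads that match several places were dropped. They deposited these raw counts for 46078 genes, 92 spike-in RNAs and 5 summary categories. The 15 columns used were assigned to groups, not to single samples, through the study's sample sheet, which lists the column names, and libraries are lettered in the order of the table. 1 further column of values was not mapped to a sample and not used.

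Spike-ins and summary categories were left out. Each comparison was tested with edgeR 4.0.16 (R 4.3.3; filterByExpr, TMM, quasi-likelihood test, only the groups compared, all 4 for the interaction), with Benjamini-Hochberg adjustment over all genes tested and a 10% FDR. The script was tested on simulated data. CPM are TMM-scaled over the 15 libraries, and levels per kb use merged GENCODE M21 exons. P-values measure the spread between libraries; the labels do not name the mice. Members, other pathway genes and cell type markers were chosen with earlier results of these data known. Values in every library are given for members past the FDR, else the 3 with the smallest p in each direction under 0.05 (interaction: 3), for Pdha1, Cs, Idh3a, Ogdh, Cpt1a and Acadm, and for the 3 highest and 3 lowest levels; Mdh2, Acadvl, Sucla2, Etfa and Cpt2 were named after their values were seen. Of the pathway genes, the 2 with the smallest p in each direction under 0.05 in each comparison of 2 groups are named, and 1 further gene is not reported here.

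The alternatives were DESeq2 1.42.0, its size factors or spike-in factors in edgeR, no filter, at least 10 counts in every library, thinning to the smallest library, an FDR of 0.05, 1 fit of all groups, only libraries past the authors' quality cut-offs (2 central WT libraries had too few counted reads), only libraries over 0.5% spike-in, each library left out, and shares without mitochondrial genes. Leaving out the 2 endosteal libraries with more than 2 Gfra2 counts, and a term for libraries over or under 0.5% spike-in, were chosen after seeing the data.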

Additional observations from a re-analysis of the deposited data

Results flagged for a closer look

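A library far from the other 3 of its group was looked for by Dixon's ratio, at its 95% critical value, in 66 groups of 4 values, of which 5 were so marked. Chance marks about 1 in 20 groups, and the central group labelled Gfra2-/-, with 3 libraries, was not tested. Sdhb stood at 91.5 CPM in central WT library B, where the other 3 had 27.1 to 34.8 CPM, and this library is the one that overlaps with the central libraries labelled Gfra2-/-. Pcx stood at 2.09 CPM in endosteal library A labelled Gfra2-/-, against 0.0503 to 0.115 CPM. Cpt1a stood at 252 CPM in endosteal library D labelled Gfra2-/-, one of those with more than 2 Gfra2 counts, against 72.4 to 103 CPM. In central WT library D, the share of counts on the 4 pyruvate genes was 0.0429%, against 0.0152% to 0.0179%, and that on all members 0.411%, against 0.364% to 0.372%. No member had differences of opposite direction in the 2 compartments or genotypes with groups that do not overlap in both.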

How the results depend on the processing

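In edgeR with a 10% FDR no member was called in any of the 5 comparisons, and leaving out each library in turn gave 0 to 0 called members in each of the 5. With DESeq2, 3 members were called in endosteal against central WT HSCs, 2 in endosteal against central HSCs labelled Gfra2-/- and 2 in central Gfra2-/- against WT. In that last comparison 1 member, Hadh, was called with no filter on low counts and 1, also Hadh, with at least 10 counts in every library. The cause of these differences was not tested. The share of all genes called with either of these settings of the filter is not given, so the call of Hadh cannot be set against it. The other 95 alternative counts of called members were 0. Members named in a comparison kept their direction relative to the median of all genes in every alternative computed, with the same call in 290 values and a call gained in 8. Without mitochondrial genes in the total, the share of counts was 0.408% on all members in central WT, and 0.340% and 0.267% on the TCA cycle genes in endosteal and central WT. Of the alternative counts at an unadjusted p-value under 0.05, 63 changed by over 1.5 times and 127 did not, so these small counts are not stable: leaving out 1 library gave 4 to 6 higher members in endosteal WT HSCs and 1 to 4 in central libraries labelled Gfra2-/-. From the names alone, no paired analysis was possible because no column name gives a replicate number, so the replicate block was not run. The unused column aside, the columns run in sets through the 4 groups, in the order of the numbered samples. The last set holds the 4 libraries under 0.5% spike-in, namely the libraries D and central library C labelled Gfra2-/-. Whether these sets are replicates was not tested, and no block by column order was fitted. With a term for spike-in share instead, 0 members were called in each comparison, and Etfdh was at 3.32 relative to all genes in the compartments of WT (FDR = 0.552 from edgeR). Quality cut-offs removed no library from the comparisons without central WT. Depth limits what central WT can show, since its shallowest library had 826487 counts on genes.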
